A study of Caenorhabditis elegans with 2 samples.

Results

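The piRNA genes of Caenorhabditis elegans encode the small RNAs known as 21U-RNAs, and all 15363 of them in the Ensembl annotation of assembly WBcel235 were examined among the 46890 annotated nuclear genes. They were split by position on chromosome IV into a left cluster between 4.5 and 7.0 Mb (2816 genes), a right cluster between 13.5 and 17.2 Mb (11388 genes) and the rest of the genome (1159 genes, 510 of them elsewhere on IV). Each gene was given a window from 1000 bp upstream to 200 bp downstream of its 5' end. A window counted as bound if it held the summit, the base of strongest signal, of a region occupied by the protein LSL-1. The window of every protein-coding gene was built in the same way and serves as the comparison.

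The binding data are chromatin immunoprecipitation followed by sequencing (ChIP-seq) of whole young adult worms of mixed sex, 69 h old and synchronised by starvation at the first larval stage. The strain, OP720, carries the mutation unc-119(tm4063) and the insertion wgIs720, which holds a transgene in which lsl-1 is joined to the tags TY1, EGFP and 3xFLAG, together with a rescuing unc-119(+) copy. The tagged LSL-1 was precipitated with an antibody against green fluorescent protein. There is 1 group of 2 biological replicates, with no other genotype, age or treatment, and all animals are transgenic. Comparisons are therefore between classes of genes or bases, and signal from single tissues cannot be separated. A list of 3897 peaks kept after an irreproducible discovery rate (IDR) threshold is called the IDR list, and a list of 30000 regions called on both replicates together, background included, is called the pooled list. The IDR peaks are exactly the 3897 regions of highest score in the pooled list, and a peak's rank below is its place in that order, with rank 1 the highest score. Neither list holds read counts, so the depth is unknown. Intervals are exact 95% intervals, Clopper-Pearson for shares and Poisson for densities, and cover counting error only. Genes that share a summit are not independent, so these intervals are too narrow, and no test was run.

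Worm piRNAs are transcribed in the germline, each from its own small gene, and are loaded on the Argonaute protein PRG-1, which uses them to recognise and silence foreign transcripts. Most piRNA genes lie in the chromosome IV clusters and carry a conserved upstream motif, which is read by a complex that includes PRDE-1 and SNPC-4. Another class, often called type II, lacks the motif and is derived from short capped transcripts near promoters of protein-coding genes. LSL-1 is a zinc finger transcription factor of the germline.

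The annotated piRNA genes were all 21 bases long, and 96.2% began with T, the letter that corresponds to the 5' U of the RNA. The motif CTGTTTCA, searched on the gene's own strand from 80 to 20 bp upstream, was present in full at 33.6% of piRNA genes (5160 genes), against 0.285% of protein-coding genes. Its first base lay at a median of 46 bp upstream, and 90.6% of the matches began 44 to 48 bp upstream. The following stretches, read from the RefSeq sequence of WBcel235, show the 80 bases upstream of 5 genes whose windows hold an IDR summit, in lower case, followed by the gene itself in capitals. Within the upstream bases, capitals mark a full match to the motif. They are shown because the first pair, in the right cluster, carry the full motif and the others do not, although all have an IDR summit in the window. The last gene, 21ur-9572, lacks a full match but does hold the core of the motif, GTTTC, in its upstream bases. The summit lay 883 and 929 bp upstream of the motif-bearing pair, and 61, 102 and 67 bp upstream of the others, in the order printed. They lie at IV:13879644-13879744 (minus strand), IV:14463332-14463432 (minus), IV:5274305-5274405 (plus), IV:5364339-5364439 (plus) and III:10807402-10807502 (plus), in the order printed.
21ur-4661: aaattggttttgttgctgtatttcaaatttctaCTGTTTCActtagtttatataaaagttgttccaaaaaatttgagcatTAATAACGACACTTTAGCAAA
21ur-3995: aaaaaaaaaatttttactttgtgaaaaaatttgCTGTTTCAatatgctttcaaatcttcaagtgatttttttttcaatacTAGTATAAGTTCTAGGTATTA
21ur-4486: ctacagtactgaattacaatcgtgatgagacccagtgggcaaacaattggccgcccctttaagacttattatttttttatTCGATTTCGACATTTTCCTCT
21ur-11261: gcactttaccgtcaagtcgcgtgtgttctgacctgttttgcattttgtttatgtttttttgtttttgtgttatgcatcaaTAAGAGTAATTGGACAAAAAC
21ur-9572: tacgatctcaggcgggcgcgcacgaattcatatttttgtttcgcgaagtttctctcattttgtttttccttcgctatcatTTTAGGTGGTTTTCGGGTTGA

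The share with the full motif differed more between chromosome IV and the other chromosomes than between the clusters and the rest of IV. CTGTTTCA stood upstream of 39.6% of left cluster genes (37.8 to 41.5), 33.7% of right cluster genes (32.9 to 34.6) and 31.6% of the IV genes outside the clusters (27.6 to 35.8). It stood upstream of 6.63% of the 649 genes on other chromosomes (4.84 to 8.82). The hosts differ as well. Of the left cluster genes 49.0% started in an intron of a protein-coding gene, 46.4% between genes and 4.65% in an exon. Of the right cluster genes 30.5% started in an intron, 66.9% between genes and 2.59% in an exon. In the rest of the genome 25.6% started in an exon.

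LSL-1 summits were scarce at piRNA genes. An IDR summit lay in the window of 136 of 15363 piRNA genes (0.885%, 0.743 to 1.05), against 12.6% of the 31527 other nuclear genes and 14.2% of the 19973 protein-coding genes. Among the other small RNA classes the share was 42.0% for tRNA, 45.7% for snRNA and 38.2% for snoRNA genes, but 8.43% for microRNA genes (22 of 261) and 0 of 20 for rRNA genes. Pseudogenes had 4.32%. Called on each replicate's own 3897 top regions, the count was 140 genes in replicate 1 and 128 genes in replicate 2.

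Both clusters lay below the rest of the piRNA genes. In the left cluster 14 genes had an IDR summit (0.497%, 0.272 to 0.833), against 13.5% of the 482 protein-coding genes there (10.6 to 16.9). In the right cluster 75 genes had one (0.659%, 0.518 to 0.825), against 10.5% of 459 protein-coding genes (7.81 to 13.6). Outside the clusters 47 of 1159 piRNA genes had one (4.06%, 2.99 to 5.36), against 14.3% of protein-coding genes (13.8 to 14.8). In each of the 3 places the intervals of piRNA and protein-coding genes did not overlap. The replicates gave 14 and 14 genes in the left cluster, 80 and 69 in the right cluster and 46 and 45 elsewhere, replicate 1 first.

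The longer pooled list, which includes background regions, kept this order. A pooled summit lay in the window of 10.6% of piRNA genes (1631 genes), against 35.0% of the other nuclear genes and 36.7% of protein-coding genes. The share was 7.67% in the left cluster, 10.7% in the right cluster and 16.6% in the rest, against 32.0%, 29.8% and 37.0% of protein-coding genes in the same places. In the replicates' own full lists it was 10.8% in replicate 1 and 13.0% in replicate 2, against 37.3% and 35.0% of protein-coding genes.

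**Figure D1:**
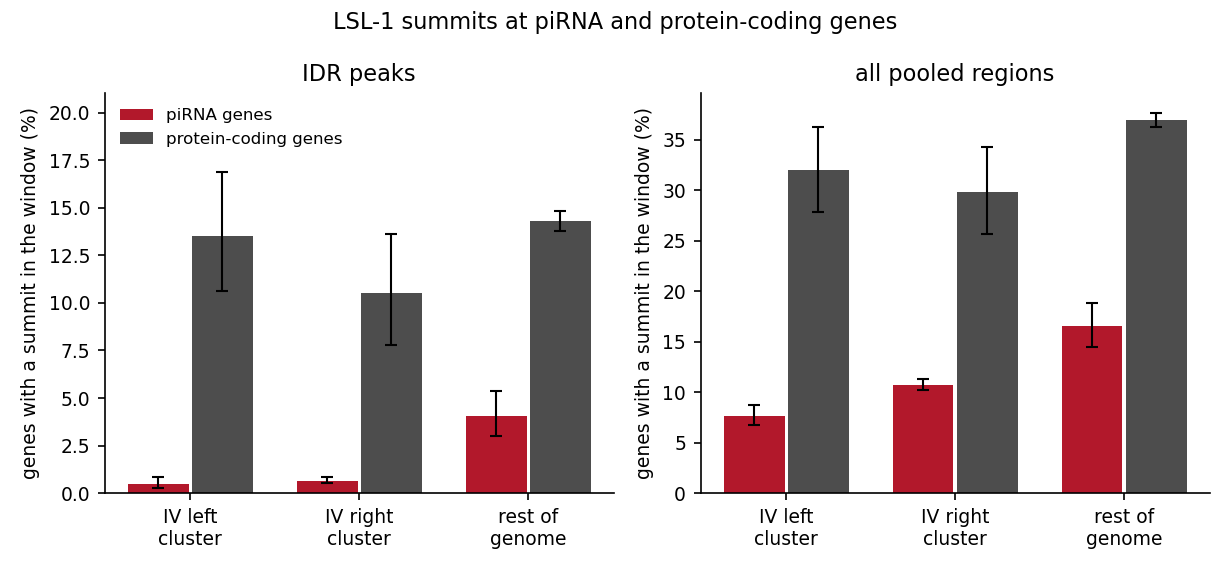
Share of piRNA genes (red) and protein-coding genes (grey) with a summit in the window, in percent, in the left cluster, the right cluster and the rest of the genome. The left panel is the IDR list and the right panel the pooled list; bars are shares and whiskers exact 95% intervals. Red bars stand below the grey ones throughout, at 0.497%, 0.659% and 4.06% against 13.5%, 10.5% and 14.3% in the IDR list.

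The 136 genes were reached by only 91 distinct summits, 7 in the left cluster, 29 in the right cluster and 55 elsewhere. Some of these stood close together: they lay in 88 distinct intervals, and merging summits closer than 500 bp left 80. Of the 29 right cluster summits, 21 lay in the windows of at least 2 piRNA genes, and up to 6. Elsewhere 53 of 55 summits reached a single piRNA gene. The median rank was 2316 in the left cluster, 2827 in the right cluster and 2000 elsewhere, against 1949 for all IDR peaks. Replicate support was near that of the whole list, since 70 of 91 summits (76.9%, 66.9 to 85.1) had a partner within 100 bp among the 3897 top regions of both replicates, against 79.1% of all IDR peaks.

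The summits in piRNA windows were then split by whether they also lay in a protein-coding promoter window. Of the 91 summits, 49 (53.8%, 43.1 to 64.4) also lay in a protein-coding window, against 58.2% of all IDR summits, a value inside that interval. The share was 7 of 29 in the right cluster (24.1%, 10.3 to 43.5), 3 of 7 in the left cluster and 39 of 55 elsewhere (70.9%, 57.1 to 82.4). Leaving out the genes that such a summit reached, 11 left cluster, 58 right cluster and 13 other piRNA genes were bound.

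Many of the cluster summits stood beside small RNA genes of other classes. In the right cluster 15 of 29 summits (51.7%, 32.5 to 70.6) lay within 200 bp of a tRNA, snRNA or snoRNA gene, against 10.2% of all IDR summits. In the left cluster 3 of 7 did so, and elsewhere 9 of 55 (16.4%). A tRNA gene alone accounted for 8 of 29 in the right cluster (27.6%, 12.7 to 47.2), against 5.62% of all IDR summits. Without these summits the share of bound genes was 0.142% in the left cluster and 0.246% in the right cluster, and 3.54% in the rest. Summits that were neither in a protein-coding window nor near such a gene reached 1 left cluster gene, 24 right cluster genes and 10 others. All IDR summits are not a matched baseline, since 58.2% of them lay in protein-coding windows, against 24.1% of the right cluster summits. Cluster summits in neither a piRNA nor a protein-coding window were near such a gene in 0 of 2, 0 of 21, 3 of 25 and 9 of 16 cases. These counts are for local GC below 30%, at 30 to 35%, at 35 to 40% and at 40% or more. For cluster summits in a piRNA window alone they were 0 of 1, 3 of 6, 5 of 9 and 6 of 10 in the same classes.

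Single summits show these situations. In the left cluster the best rank, 812, was at 21ur-4486, an intronic gene 61 bp downstream of the summit. That summit lay within F36H12.17 and 207 bp upstream of slfl-4, a Schlafen-like gene whose product takes part in trimming piRNA precursors. It ranked 800 in replicate 1 and 889 in replicate 2. Next came 21ur-9710 (rank 1739), whose summit was 178 bp upstream of Y4C6B.1, and 21ur-11261 (rank 1834), whose summit was 11 bp upstream of hda-6, a histone deacetylase gene. These 3 summits were the ones in protein-coding windows. The left cluster summits outside such windows ranked between 2316 and 2578. At 21ur-13268 the summit lay near a tRNA gene within tyr-6, a tyrosinase-like gene, at 21ur-5229 near another tRNA gene and at 21ur-8976 near the snRNA gene sls-2.17. At 21ur-7377 (rank 2578) no such gene was near.

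In the right cluster the best rank was 162, at a summit 598 bp upstream of 21ur-14078 in an intron of Y57G11C.5, beside the snRNA gene Y57G11C.35. It ranked 160 and 182 in replicates 1 and 2. The next, rank 648, lay 883 bp upstream of the motif-bearing gene 21ur-4661, within B0513.4, with no small RNA gene of those classes near it. The summit at 21ur-10291 (rank 1938) was 299 bp upstream of the gene within Y57G11C.22. The summits at 21ur-3718 (rank 1993) and 21ur-3160 (rank 2002) each lay beside a tRNA gene, and the one at 21ur-3160 was in the windows of 6 piRNA genes. Further summits in 6 windows were at 21ur-1894 (rank 2757), in an exon of the zinc finger gene tlp-1, and at 21ur-12759 (rank 2827), beside a tRNA gene. Of the right cluster summits in protein-coding windows, the best were 236 bp upstream of dld-1, which encodes dihydrolipoamide dehydrogenase (rank 946, 21ur-3995), 783 bp upstream of the F-box gene fbxa-83 (rank 1171, 21ur-9650) and 183 bp upstream of rom-4, a rhomboid gene (rank 2033, 21ur-6245). The summit at 21ur-9650 also lay within 200 bp of the snoRNA gene Y67A10A.14, whereas those at 21ur-3995 and 21ur-6245 had no such gene near.

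Where in the window the summits fell also differed by place. In the clusters the median position was 679 bp upstream of the 5' end (14 gene and summit pairs, left) and 625 bp upstream (79 pairs, right). Elsewhere it was 115 bp upstream (57 pairs), against 255 bp upstream for protein-coding genes (3132 pairs). The 300 bp directly upstream held 14.3% of left cluster, 11.4% of right cluster and 54.4% of other pairs, against 52.4% of protein-coding pairs. A flat spread over the window would put 25.1% there. In the pooled list the shares were 22.0% in the left cluster, 19.0% in the right cluster and 31.8% elsewhere, against 35.6% for protein-coding genes, so the cluster values there were closer to a flat spread. Single cluster summits did fall close to the 5' end, as at 21ur-4486.

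**Figure D2:**
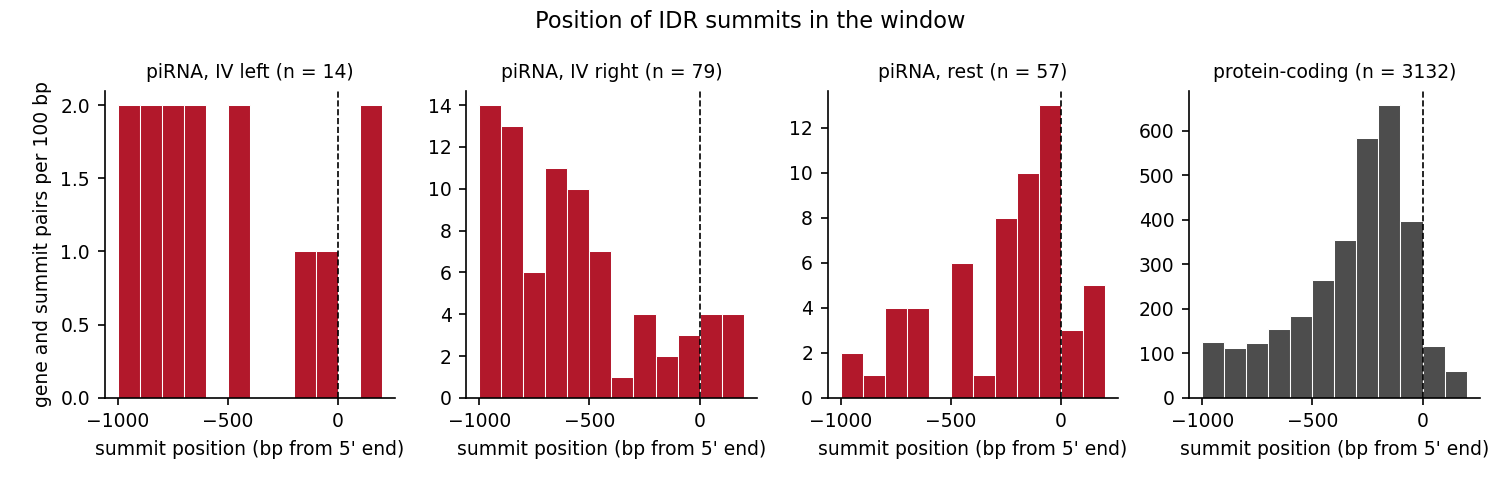
Number of gene and IDR summit pairs in bins of 100 bp, by position relative to the annotated 5' end (dashed line), for piRNA genes of the left cluster (14 pairs), the right cluster (79) and the rest (57), and for protein-coding genes (3132). Vertical scales differ; right cluster pairs are most frequent at the far upstream edge, whereas pairs of the rest and of protein-coding genes peak within 300 bp of the 5' end.

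In the right cluster the bound shares with and without the motif differed by less than their intervals. An IDR summit lay at 0.651% of right cluster genes with CTGTTTCA (25 of 3840, 0.422 to 0.96) and 0.662% of those without it (50 of 7548, 0.492 to 0.872). In the left cluster 3 of 1116 genes with the motif and 11 of 1700 without it had a summit, and the intervals overlap (0.0555 to 0.784% and 0.323 to 1.15%). In the rest it was 4 of 204 genes with the motif (1.96%) and 43 of 955 without it (4.5%), and those intervals overlap too. Looser matches did divide the rest. There the core GTTTC stood upstream of 27.7% of bound genes (13 of 47, 15.6 to 42.6), against 55.3% of the others (52.3 to 58.3). With 1 mismatch allowed, CTGTTTCA stood upstream of 25.5% (13.9 to 40.3), against 52.9% (49.9 to 55.8). In each cluster the intervals of both looser matches overlapped, with the core at 57.1% against 79.3% (left) and 70.7% against 74.8% (right). In the rest 161 of the 204 genes with the full motif are on IV, and the core was also more frequent there. It stood upstream of 65.3% of the rest genes on IV, against 45.5% of those on other chromosomes. The bound shares were not split by motif and chromosome together.

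The base classes of the clusters show how far the piRNA windows differ from the sequence between them. In both clusters together, bases in a piRNA window and in no protein-coding window held 7.57 IDR summits per Mb (26 summits, 4.94 to 11.1), against 36.8 per Mb in bases that were in neither (64 summits, 28.3 to 47.0). Bases in both a piRNA and a protein-coding window held 18.0 per Mb (10 summits, 8.61 to 33.0), against 179 per Mb in protein-coding windows alone (84 summits, 143 to 221). The pooled list gave 112 against 355 per Mb outside protein-coding windows and 133 against 598 per Mb inside them. Each cluster alone gave the same order, with 3.91 against 39.7 per Mb in the left cluster and 9.12 against 33.2 per Mb in the right cluster outside protein-coding windows. On IV outside the clusters, bases in both kinds of window held 80.5 per Mb (9 summits, 36.8 to 153), against 123 per Mb in protein-coding windows alone (110 to 138), and these intervals overlap.

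Density changed with distance from the nearest piRNA 5' end in the clusters. Within 250 bp it was 4.51 IDR summits per Mb (2.47 to 7.57), from 250 to 500 bp 19.1, from 500 to 1000 bp 27.8, from 1000 to 2000 bp 47.7 and from 2000 to 5000 bp 95.2 per Mb (70.6 to 125). Beyond that it was 66.2 per Mb at 5000 to 10000 bp and 92.3 per Mb farther away. Inside protein-coding windows the values were 15.0 per Mb within 250 bp (6 summits) and 314 per Mb beyond 10000 bp (33 summits). Outside them they were 2.96 per Mb (8 summits) and 33.1 per Mb (13 summits). The steps between these ends were not even. Inside protein-coding windows the lowest value was 7.39 per Mb at 250 to 500 bp (1 summit). Outside them the highest was 51.9 per Mb at 2000 to 5000 bp (21 summits).

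**Figure D3:**
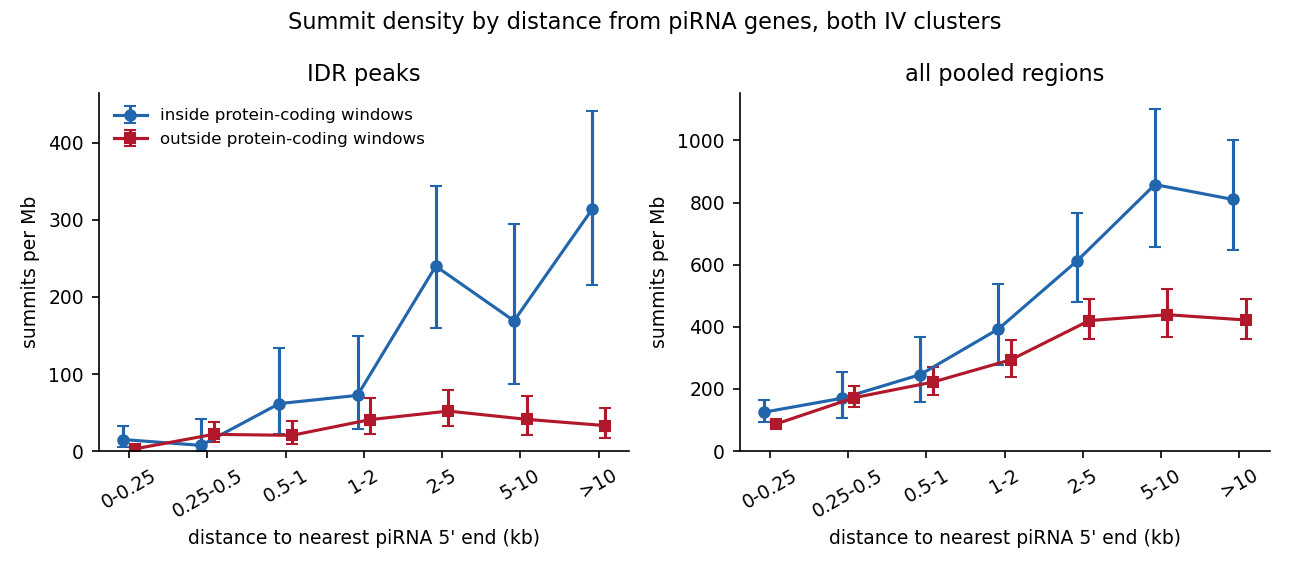
Summits per Mb in both chromosome IV clusters by distance to the nearest piRNA 5' end in kb, inside (blue circles) and outside (red squares) protein-coding windows, for the IDR list (left) and the pooled list (right). Points are densities and whiskers exact 95% Poisson intervals; the lowest IDR value outside protein-coding windows, 2.96 per Mb, is in the nearest bin, and the highest inside them, 314 per Mb, in the farthest.

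Base composition moved with these classes. Bases in piRNA windows alone were 30.9% GC, against 36.6% for bases in neither window, and bases in both windows were 31.6% GC, against 36.0% in protein-coding windows alone. Soft-masked repeats covered 43.8% of bases in piRNA windows alone, against 39.0% in neither; the part of repeats and of read mapping in the result was not tested. The bases were therefore split by the GC content of the 501 bp around them. Outside protein-coding windows, piRNA windows had 0.587 IDR summits per Mb where GC was below 30% (1 summit), against 7.07 per Mb in bases of neither window (2 summits), and these intervals overlap. At 30 to 35% GC they had 5.58 per Mb (2.05 to 12.1), against 46.1 per Mb (28.6 to 70.5). At 35 to 40% GC they had 19.8 per Mb (9.04 to 37.5), against 51.3 per Mb (33.2 to 75.7), and the intervals overlap slightly. At 40% GC or more the order turned, with 49.9 per Mb (10 summits, 23.9 to 91.8), against 31.2 per Mb (16 summits, 17.8 to 50.6). In that class 6 of the 10 summits, against 9 of the 16, were within 200 bp of a tRNA, snRNA or snoRNA gene. The pooled list gave 544 against 499 per Mb there.

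**Figure D4:**
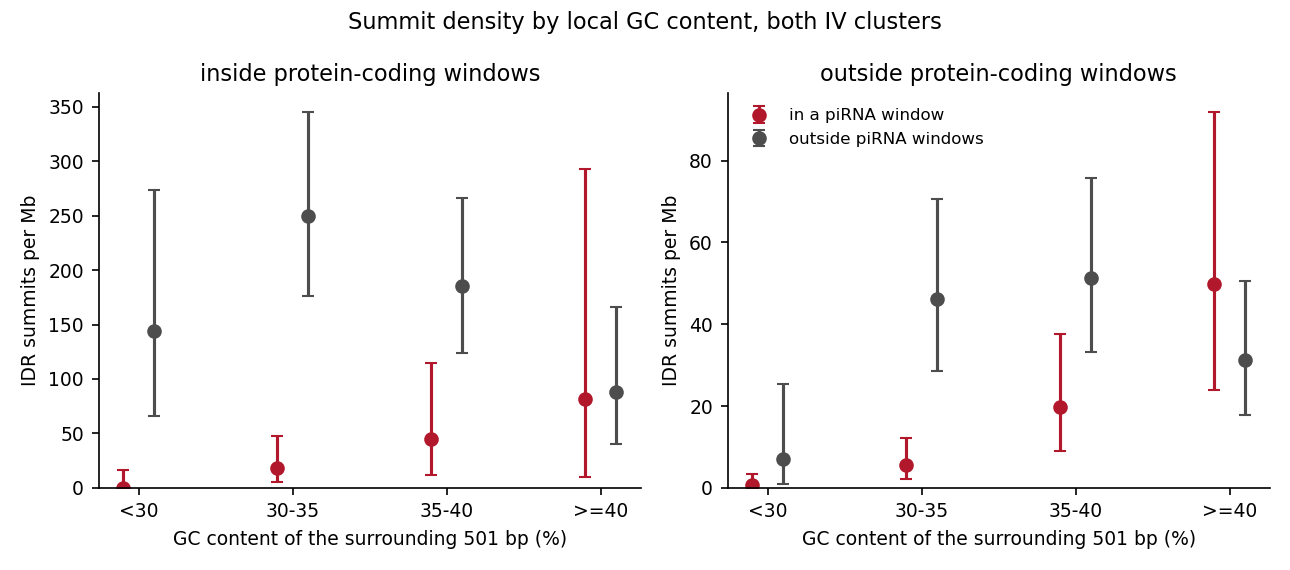
IDR summits per Mb in both chromosome IV clusters by GC content of the surrounding 501 bp, inside protein-coding windows (left panel) and outside them (right panel), for bases in a piRNA window (red) and outside piRNA windows (grey), with exact 95% Poisson intervals. Red points lie below grey ones in both panels up to 40% GC; at 40% GC and more the intervals overlap in both panels and the order is turned in the right one, at 49.9 against 31.2 per Mb.

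The protein-coding genes of the clusters followed the same division. A gene whose own 5' end fell in a piRNA window had an IDR summit in 5 of 190 cases in the left cluster (2.63%, 0.86 to 6.03), against 60 of 292 cases (20.5%, 16.1 to 25.6) for genes that started outside piRNA windows. In the right cluster it was 5 of 282 (1.77%, 0.578 to 4.09), against 43 of 177 (24.3%, 18.2 to 31.3). In the rest of the genome it was 41 of 295 (13.9%, 10.2 to 18.4), against 14.3% (13.8 to 14.8), and the intervals overlap. By GC content, the cluster genes in piRNA windows were bound in 1.08% of cases below 30% GC, 0.858% at 30 to 35%, 5.08% at 35 to 40% and 3.57% at 40% or more. Cluster genes outside piRNA windows were bound in 11.1%, 18.4%, 28.5% and 17.4% of cases in these classes. The intervals of both groups overlapped below 30% and at 40% or more, where the classes hold few genes.

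**Figure D5:**
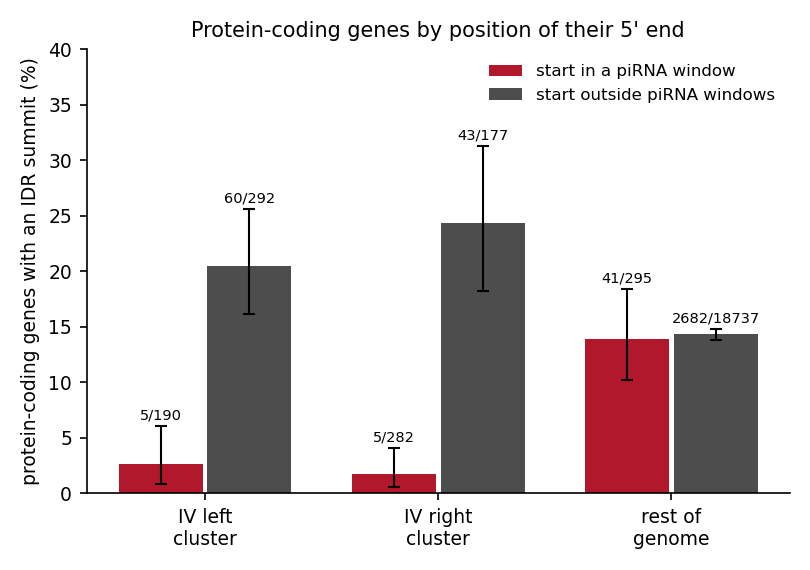
Share of protein-coding genes with an IDR summit, in percent, for genes whose 5' end lay in a piRNA window (red) or outside piRNA windows (grey) in the left cluster, the right cluster and the rest of the genome; numbers above the bars are bound genes over all genes and whiskers exact 95% intervals. In the clusters red bars stand at 2.63% and 1.77% against 20.5% and 24.3%, and in the rest at 13.9% against 14.3%.

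The kinds of protein-coding gene differ between these groups. Chemoreceptor genes of the sr and str families, which act in sensory neurons, made up 58 of 472 cluster genes in piRNA windows (12.3%), against 23 of 469 outside them (4.9%), and 0 of either had an IDR summit. Without them the bound share was 2.42% (1.16 to 4.4), against 23.1% (19.3 to 27.3). The bound genes that started in piRNA windows of the left cluster were slfl-4, Y4C6B.7 and Y4C6B.1 (which share a summit), hda-6 and F41H10.4 (likewise). Those of the right cluster were Y45F10B.59, fbxa-83, the ligand-gated ion channel gene lgc-52, Y7A9D.1 and rom-4. The summits of Y45F10B.59, fbxa-83, lgc-52 and Y7A9D.1 each lay within 200 bp of a tRNA, snRNA or snoRNA gene. They stood 968, 783, 706 and 242 bp upstream of these protein-coding genes, in that order. The summit of lgc-52 also lay in the window of another protein-coding gene, nearer to its start.

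In 50 kb tiles along chromosome IV, the 76 tiles with 100 or more piRNA genes held a mean of 0.855 IDR summits, and 44 of them held 0. Tiles with 50 to 99 piRNA genes held 1.76 and those with 10 to 49 held 2.18 on average. The 100 tiles without a piRNA gene held 2.47, and 19 of them held 0. The tiles also differ in protein-coding genes, with 423 in the 76 densest tiles and 906 in the 100 without a piRNA gene. Of these genes 8.04% (5.63 to 11.1) and 18.2% (15.8 to 20.9) were bound.

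Outside the clusters, bound shares were higher for piRNA genes that started in a protein-coding window. The windows of such genes overlap that window by construction, so they can hold the summit of the protein-coding promoter itself. A piRNA gene whose 5' end lay in a protein-coding window had an IDR summit in 32 of 283 cases (11.3%, 7.86 to 15.6), against 15 of 876 (1.71%, 0.961 to 2.81) for the others. The same split gave 14 of 1153 (1.21%, 0.665 to 2.03) against 61 of 10235 (0.596%, 0.456 to 0.765) in the right cluster and 3 of 419 against 11 of 2397 in the left cluster. By chromosome, 11 of 98 genes were bound on I (11.2%), 9 of 109 on II (8.26%), 10 of 78 on III (12.8%), 12 of 510 on IV (2.35%) and 5 of 202 on V (2.48%). On X it was 0 of 162, which allows a share of up to 1.85% if 3 counts of the total are taken as the limit, and of up to 2.25% by the exact interval. Protein-coding genes outside the clusters had 22.9%, 15.9%, 24.4%, 16.1%, 9.33% and 1.03% on I, II, III, IV, V and X. Among piRNA genes the interval of X overlaps those of IV (1.22 to 4.07) and V (0.808 to 5.68), so the 3 are not ranked.

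The strongest of these summits were at promoters. The best rank was 124, at 21ur-13866, where the summit was 275 bp upstream of the DNA damage checkpoint gene hus-1. Rank 135 was at 21ur-12279, where the summit was 4 bp downstream of the annotated 5' end of atp-1, which encodes the alpha subunit of mitochondrial ATP synthase. Rank 180 was at 21ur-11275, 180 bp upstream of Y110A7A.15. Outside protein-coding windows, the best ranks were at 21ur-13808 on III (rank 558, intergenic, 203 bp upstream of the gene), at 21ur-12380 in an intron of the ribosomal protein gene rpl-19 (rank 644, 67 bp upstream) and at 21ur-9572 in an intron of klp-7, a kinesin gene (rank 1014, 67 bp upstream). A lower rank was at 21ur-9360, whose summit was in an exon of the centromeric histone gene hcp-3 (rank 1511). The windows were built on annotated gene starts alone, so promoters inside a gene are not covered by them.

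The sequence word ACAGTA, its relative ACTGTA and the word CTACAG came from an earlier analysis of these same peaks and are a description. Any of them, on either strand within 50 bp of the summit, was found at 18 of 91 summits in piRNA windows (19.8%, 12.2 to 29.4), against 27.3% of all IDR summits (25.9 to 28.7) and 13.3% of the lower-ranked pooled regions. It was 2 of 29 in the right cluster (6.9%, 0.846 to 22.8), below the interval of all IDR summits, 2 of 7 in the left cluster and 14 of 55 elsewhere (25.5%). The words overlap one another and can be read from one longer stretch.

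The bases around 3 cluster summits, 50 on each side, show them with the words in capitals, plus strand of WBcel235 from RefSeq. They are the only 2 right cluster summits with a word, of rank 162 and 648, and the left cluster summit of rank 812 at slfl-4. The windows are IV:14765042-14765142, IV:13880497-13880597 and IV:5274274-5274374, in the order printed.
rank 162: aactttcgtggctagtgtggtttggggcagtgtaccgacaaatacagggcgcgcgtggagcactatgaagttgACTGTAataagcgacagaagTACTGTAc
rank 648: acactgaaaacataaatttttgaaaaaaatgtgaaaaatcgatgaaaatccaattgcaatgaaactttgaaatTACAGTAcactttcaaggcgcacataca
rank 812: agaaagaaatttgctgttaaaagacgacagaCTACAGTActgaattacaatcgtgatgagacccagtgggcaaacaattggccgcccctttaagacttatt

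The genes whose products make or use piRNAs are given as a description. Of 22 listed pathway genes 20 were matched by symbol, and 13 of them (65.0%) had an IDR summit in the window, against 14.2% of all protein-coding genes. The list was drawn up with earlier results of these peaks known, so its share supports no comparison. Among genes listed for piRNA transcription, prde-1 (rank 1561), snpc-4 (rank 2143), tofu-4 (rank 2664), attf-6 (rank 235) and the chromatin remodeller isw-1 (rank 987) were bound, and snpc-1.3, tofu-5 and unc-130 were not. Among genes for precursor processing, tofu-6 (rank 152), pid-1 (rank 401), slfl-3 (rank 595), slfl-4 (rank 812), tost-1 (rank 2472) and tofu-1 (rank 1469) were bound, and tofu-2, erh-2, parn-1 and the methyltransferase gene henn-1 were not. The Argonaute gene prg-1 was bound at rank 926, and tofu-7 at rank 2572. The summits of prg-1, snpc-4, tofu-1, tost-1 and tofu-4 are shared with D2030.7, F32H2.11, ruvb-1, arx-6 and the meiotic axis gene htp-3, in that order, so the summit cannot be given to either gene alone. Unbound parn-1, henn-1, snpc-1.3, tofu-5 and tofu-2 had summits in the pooled list alone, the best at rank 6560 (henn-1), and erh-2 and unc-130 had none in either list.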

How the data were processed

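The files are 4 region lists on assembly ce11 (WBcel235), called by the authors on each replicate (30000 and 26018 regions), on both pooled (30000) and after IDR thresholding (3897), per the labels and the notes deposited with each sample. How the reads were aligned, which caller and IDR threshold were used and how deep the libraries are is not given in the sources used here; no control library was analysed. The deposited score (signal value), on the caller's scale, gave ranks within each list and nothing else. The authors' −log10 q-value was not used in any result. The deposited summit offset, added to the region's start, gave each position.

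Genes came from Ensembl release 115 and sequence from RefSeq, both WBcel235; the mitochondrial genome was left out. Windows ran 1000 bp upstream to 200 bp downstream of the 5' end, and a gene with an IDR summit in it was called bound. Many worm transcripts are trans-spliced, which can place an annotated protein-coding 5' end downstream of where transcription begins. The listed names tofu-3 and pics-1 had no match and were left out. Named piRNA genes are those closest to the 5 best-ranked summits outside and the 3 best-ranked inside protein-coding windows in each place, and to the 3 summits with most piRNA genes in reach; protein-coding genes named follow from these, from the pathway list or from the count of bound genes in piRNA windows, which were named after their values were seen. One gene that this rule names is not reported here. Members and lists were chosen with earlier results of these data known. With 1 group, nothing could be tested between groups. Alternatives were narrower (500 and 100 bp) and wider (2000 and 500 bp) windows, the upper 50% of peaks, region midpoints, each replicate alone and shifted cluster bounds; leaving out summits near small RNA genes, merging summits closer than 500 bp and the GC split were chosen after seeing the data. The window counts were tested on simulated data. Scripts ran in Python 3.11.15 with scipy 1.17.1 for intervals, pandas 2.3.3 and numpy 2.4.6 for counts and matplotlib 3.10.9 for plots.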

Additional observations from a re-analysis of the deposited data

How the results depend on the processing

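The share of piRNA genes with an IDR summit followed the window size: a narrower window gave 0.404% of all genes, 0.142% in the left cluster and 0.184% in the right cluster, and a wider one gave 1.89%, 1.53%, 1.62% and 5.44% in all genes, the left cluster, the right cluster and the rest. The upper 50% of peaks gave 0.254%, 0.107%, 0.0878% and 2.24% in the same order, and 74.3% of their summits in piRNA windows lay in protein-coding windows. Without summits near tRNA, snRNA or snoRNA genes the shares were 0.475% in all genes, 0.142% in the left cluster and 0.246% in the right cluster. Pooled shares were 5.08%, 3.44%, 4.97% and 10.1% with the narrower window and 20.1%, 14.7%, 20.7% and 26.6% with the wider one. Each replicate alone (replicate 1 or replicate 2 left out) gave 0.833% to 0.911% of all genes, 0.497% in the left cluster, 0.606% to 0.702% in the right cluster and 3.88% to 3.97% in the rest, pooled shares of 10.8% to 13.0%, 7.67% to 10.4%, 10.9% to 13.2% and 17.2% to 17.3%, and 52.7% to 53.6% of summits in protein-coding windows. The motif share was 74.1% for the core GTTTC and 76.3% with 1 mismatch. Split by GC, piRNA windows outside protein-coding windows held 0.587 summits per Mb below 30% GC, 19.8 at 35 to 40% and 49.9 at 40% or more, against 7.57 over all; the cause was not tested. In all, 33 of the alternative values, including some of the replicate values above, moved by less than their intervals. No paired analysis was possible because there is 1 group. The unknown depth limits what a missing summit says: a gene without one was not detected as bound in these lists.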
